A study of Danio rerio with 6 samples.

Results

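The genes described here are identity genes of blood and lymph vessels, measured in the amputated tail fin of zebrafish larvae treated with sunitinib or with its vehicle. They were chosen by name as known vessel markers of zebrafish, leaving out the VEGF receptors and the Notch genes. Earlier results of these data were known at that choice, so shares set beside those of all genes are descriptions. Of 40 names, 37 are symbols in the table of 24923 genes, and these 37 are called the vessel genes below. The other 3 (cd34, plvapa and plvapb) were found by NCBI gene ID under older symbols, and their values are given separately.

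Endothelial cells line blood and lymph vessels. Their identity is set by ETS factors such as Etv2, Fli1a and Erg together with SoxF factors, and it is carried out by junction proteins, above all VE-cadherin, and by receptors for angiopoietins, semaphorins and ephrins. In zebrafish, lymphatic endothelium is marked by Prox1a, Lyve1b, Stab1, Stab2 and Mrc1a, most of which are also found on veins. Sunitinib, an inhibitor of several receptor tyrosine kinases, acts on the VEGF receptors of these cells among other targets.

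Tail fin RNA was sequenced from 3 pools of larvae treated with 8 μM sunitinib and 3 pools treated with 0.1% DMSO, each of more than 60 larvae. Both groups were immersed from 2 days post fertilization (dpf), had the fin cut at 3 dpf and were collected at 6 hours post amputation (hpa). The labels name the AB strain and the Tg(MPEG-GFP) line without saying which of them gave these pools. Each pool is a whole tissue with cells of many kinds. Fewer endothelial cells, less RNA per endothelial cell and changes in other cells that express these genes cannot be told apart. The libraries held 13394060 to 15294706 estimated reads, and the vessel genes took 8756 to 9885 of them with sunitinib and 9873 to 10520 with DMSO. Markers of fin tissue were all found and none was at 0 throughout. Epidermis markers summed to 20623 to 23892 CPM (read counts scaled to library size by TMM) with sunitinib and 18555 to 23349 CPM with DMSO, and fin fold mesenchyme markers to 3913 to 4359 CPM with sunitinib, against 4558 to 5108 CPM with DMSO. The mesenchyme sums did not overlap, and their part in the vessel gene values was not tested. They were mostly col1a2, and2 and and1, with log2 fold changes of -0.27, -0.17 and -0.18. The markers fbln1, fbn2b and msx3 were at -0.67, -0.25 and -0.14, and hgd and twist1a at 0.28 and 0.04. The pools also held RNA of muscle and notochord. Skeletal muscle markers summed to 119879 to 165703 CPM with sunitinib and 96026 to 148626 CPM with DMSO, lowest in DMSO replicate 1. Notochord markers summed to 3520 to 4072 CPM with sunitinib and 3886 to 4844 CPM with DMSO. Both overlapped between groups, and the part of these tissues in the vessel gene values was not tested. DMSO replicate 1 stood furthest from the other libraries, so values without it are given where they matter.

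Sunitinib larvae had lower values for most vessel genes, by small amounts. Of the 34 vessel genes with enough reads to be tested by edgeR, 28 had a negative and 6 a positive log2 fold change, where 50.5% of all 17309 tested genes were negative. The median was -0.18 on the log2 scale, against -0.0041 for all genes. Of the 34, 5 were lower at an unadjusted p under 0.05 (14.7%, background 6.12%), namely cdh5, nrp1b, sox7, fli1a and stab1, and 1 was higher (background 7.51%), lmo2. In 11 genes (32.4%) every sunitinib value lay below every DMSO value, against 10.8% of all tested genes, and in 2 genes every sunitinib value lay above, against 9.15%.

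At an adjusted p of 0.05 edgeR called no vessel gene, and none of all the tested genes (0% called, smallest adjusted p 0.190). DESeq2 called 0.307% of the genes it gave an adjusted p and limma on log2(FPKM + 1) none, with no vessel gene among them in either. The count of vessel genes lower at an unadjusted p under 0.05 was 3 of 35 without Sunitinib replicate 3 (background 3.51%) and 3 of 37 in DESeq2 (background 2.69%). It was 7 of 35 without DMSO replicate 1 (background 5.65%, with 0.017% of all genes past an adjusted p of 0.05). These 7 included hhex, which had 4, 5 and 3 reads with sunitinib, against 11 and 12 in DMSO replicates 2 and 3. It passed the read filter there only through the DMSO libraries, so its place in that count is no support. The count was 5 of 35 without Sunitinib replicate 1 (background 4.01%) and 4 of 34 with the replicate block (background 4.8%).

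**Figure D1:**
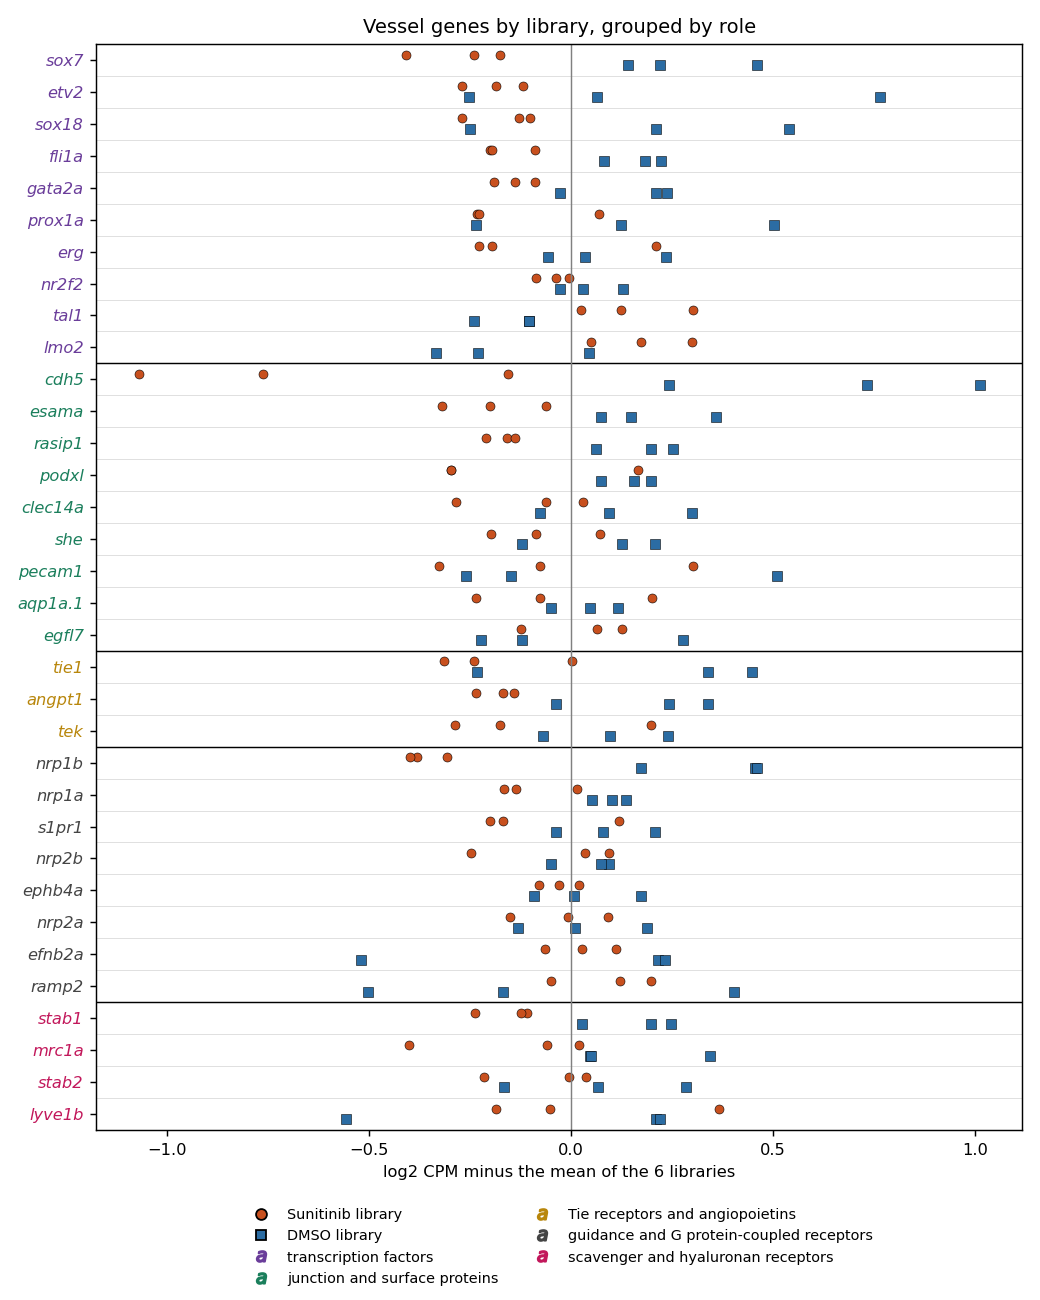
Each row is 1 tested vessel gene, and the horizontal axis is the log2 CPM of a library minus the mean of the 6 libraries, with sunitinib libraries as circles and DMSO libraries as squares. The edgeR log2 fold change largest in size is that of cdh5, at -1.31, and 21 of the 34 rows have overlapping groups.

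The libraries also differed in the median of the vessel genes. The median log2 deviation of the 34 genes from their own means was -0.13, -0.070 and -0.13 in the sunitinib libraries, against 0.082, 0.068 and 0.16 in the DMSO libraries. The same median over all tested genes stayed between -0.013 and 0.023. Every sunitinib library thus lay below every DMSO library by the median of the vessel genes. DMSO replicate 3 held the highest value of the 6 libraries for 13 genes and DMSO replicate 1 for 11, while Sunitinib replicate 2 held it for none. These counts were not set beside counts over all genes, and DMSO replicate 1 stood apart, so they only describe the libraries.

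Levels between genes were compared per length, as FPKM (fragments per kilobase of gene, scaled to library size). Among the 37 genes matched by symbol, the highest mean FPKM over the 6 libraries belonged to aqp1a.1, at 161.6, and the next to s1pr1, at 24.5. They were followed by nr2f2 at 11.4, lmo2 at 9.12 and mrc1a at 8.74 FPKM. The next genes, egfl7, etv2, nrp2a, fli1a and lyve1b, lay between 8.53 and 7.01 FPKM. From lmo2 to lyve1b each gene overlapped its neighbour in both groups, other than egfl7 and etv2 with sunitinib, so most of that order is not resolved. The VE-cadherin gene cdh5 was among the lowest of the tested genes, at 0.972 FPKM, with only she lower, at 0.843. The genes angpt2a and sox17 had at most 3 reads in any library, and hhex had 3 to 12. These 3 fell below the edgeR filter with all 6 libraries and were not tested there.

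**Figure D2:**
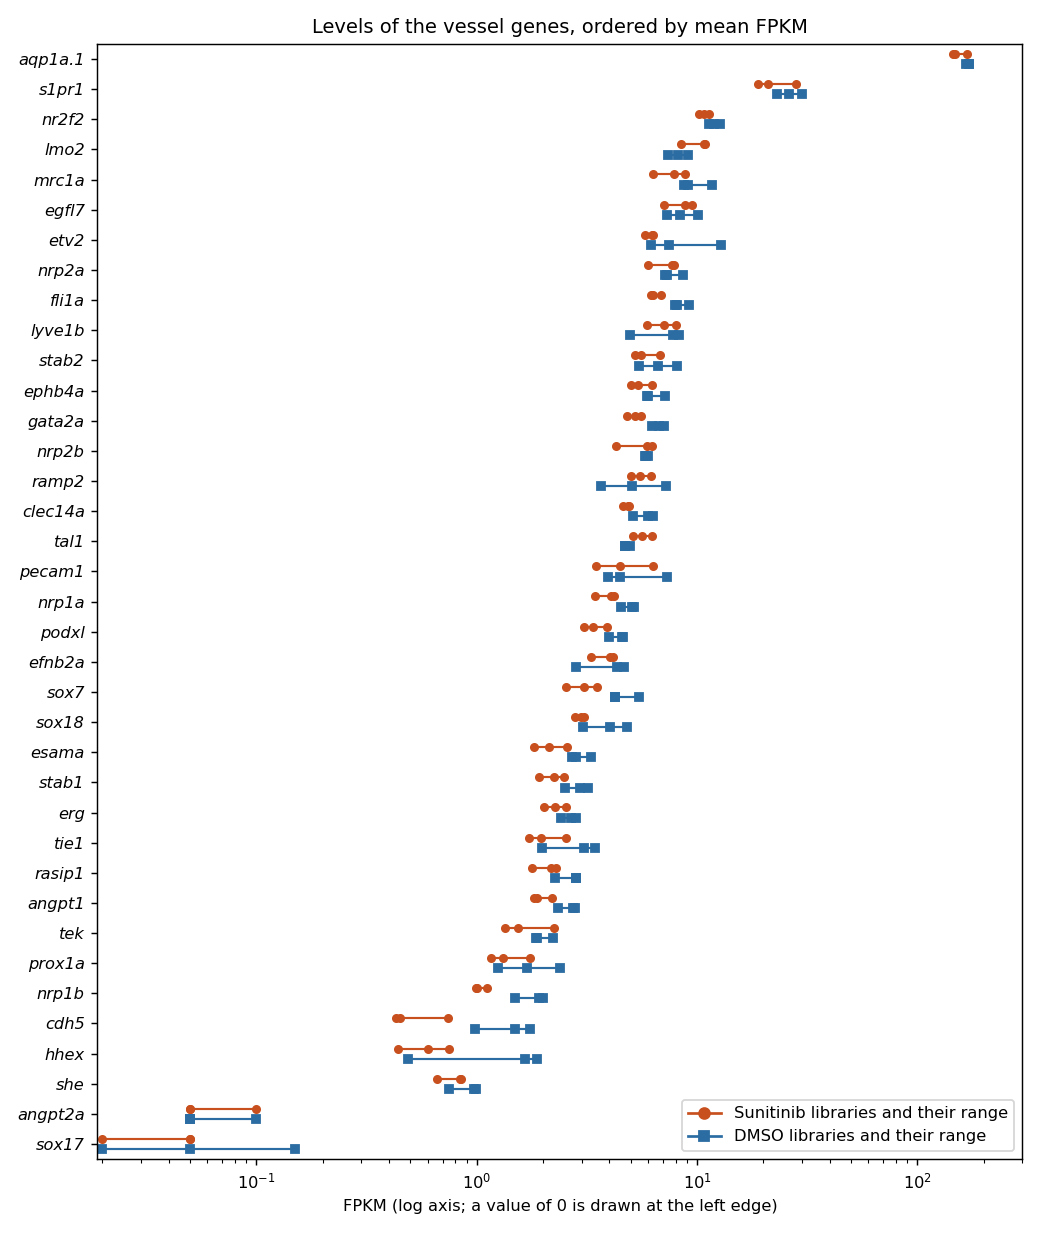
FPKM of the 37 vessel genes on a log axis, ordered by the mean of the 6 libraries, with sunitinib circles and DMSO squares joined by the range of their group. The levels run from 161.6 FPKM for aqp1a.1 to 0.050 FPKM for sox17.

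Among junction and surface proteins, cdh5 stood out by the size of its difference. It encodes VE-cadherin, the adhesion molecule that joins endothelial cells to each other. It had 1.41, 1.14 and 2.15 CPM in the sunitinib libraries, against 3.98, 2.84 and 4.84 CPM in the DMSO libraries. These values rest on 19, 18 and 32 reads with sunitinib and on 57, 41 and 72 reads with DMSO. All 3 sunitinib values lay below the lowest DMSO value, and cdh5 averaged 1.57 ± 0.524 CPM in sunitinib fins and 3.89 ± 1.0 CPM in DMSO fins (SD, n = 3 each).

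The log2 fold change of cdh5 was -1.31 (standard error 0.29, 95% interval -1.94 to -0.67), which is 2.47-fold lower with sunitinib. Its adjusted p was 0.200 in edgeR and 0.0826 in DESeq2. Leaving out 1 library at a time gave -1.60 to -1.11, and without DMSO replicate 1 it was -1.29. In the 14 alternatives that could test it, the unadjusted p ran from 0.000176 to 0.00488 and the adjusted p from 0.0826 to 0.590. It was too low for limma on FPKM.

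The other junction genes were much closer between groups. The gene pecam1, which encodes the adhesion molecule CD31, had 8.26, 12.8 and 9.83 CPM with sunitinib, against 14.7, 8.66 and 9.34 CPM with DMSO. The groups overlapped, and the log2 fold change was -0.08 (95% interval -0.56 to 0.40), a value that turned positive, to 0.20, without DMSO replicate 1, and to 0.06 without Sunitinib replicate 1. The tight junction adhesion gene esama had 2.60, 3.11 and 2.83 CPM in sunitinib libraries and 3.42, 3.60 and 4.17 CPM in DMSO libraries. The gene rasip1, whose product controls GTPase signalling at endothelial junctions and lumens, had 6.77, 6.54 and 6.87 CPM with sunitinib, against 9.01, 7.89 and 8.67 CPM with DMSO.

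For esama and rasip1 the groups did not overlap, yet their log2 fold changes of -0.39 and -0.34 had intervals that reached 0 (-0.84 to 0.07 and -0.68 to 0.000626). Ratios within a library were chosen after the values were seen. The ratio of cdh5 to pecam1 was 0.171, 0.0896 and 0.219 with sunitinib, against 0.270, 0.328 and 0.518 with DMSO. The ratio of cdh5 to fli1a was 0.0748, 0.0652 and 0.123 with sunitinib, against 0.170, 0.124 and 0.227 with DMSO. Neither ratio overlapped between groups. The exact 2-sided permutation test gave p = 0.1 for each (adjusted p = 0.1 over 3 ratios, the other being lmo2 to fli1a). That is the smallest p that 3 against 3 libraries allow, and for ratios picked from these values it is no support.

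The water channel gene aqp1a.1, which red blood cells also express, was the most abundant of all. It had 168.3, 124.4 and 138.9 CPM with sunitinib and 141.7, 158.9 and 151.3 CPM with DMSO, and the groups overlapped. The group of junction and surface proteins also held podxl (podocalyxin, a sialomucin) and clec14a (a C-type lectin of endothelium). Placed with them were she (an adaptor protein) and egfl7 (a secreted endothelial factor), which are not surface proteins. The log2 fold changes of podxl, clec14a, she and egfl7 were -0.27, -0.21, -0.14 and 0.03. None of these 4 had an unadjusted p under 0.05. In all, 8 of the 9 tested genes placed in that group were negative (background 50.5%) and 1 was positive.

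**Figure D3:**
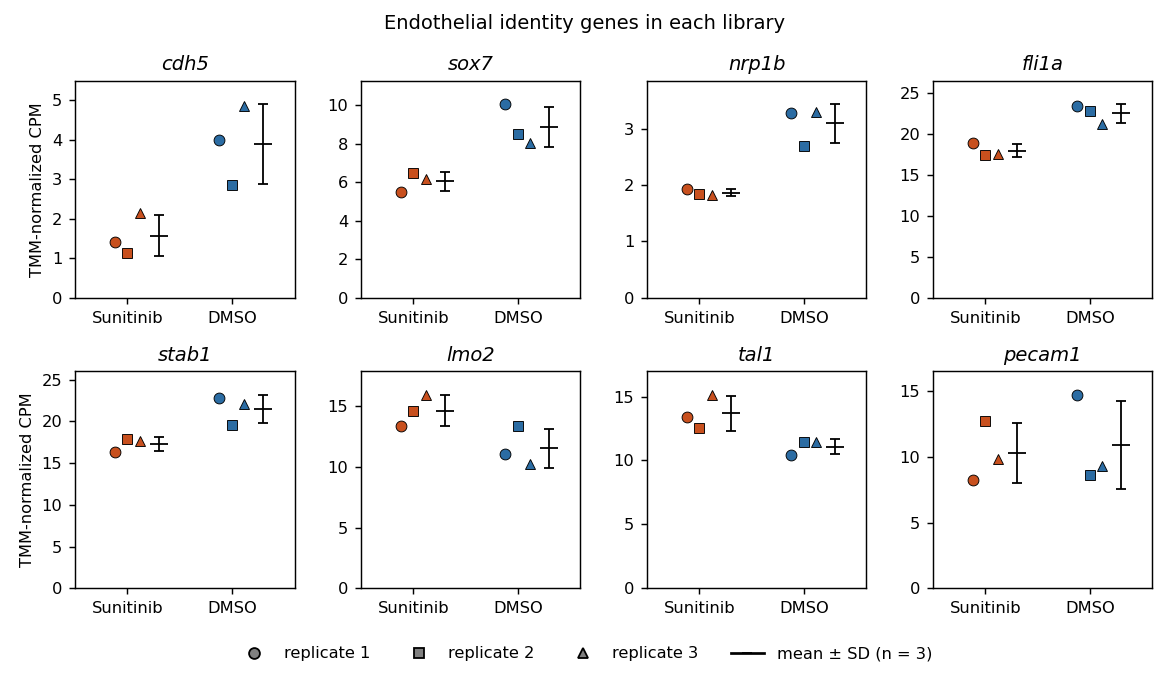
TMM-normalized CPM of 8 vessel genes in each library, with sunitinib left of DMSO, a symbol for each replicate number, and the mean ± SD beside it (n = 3). The groups are apart for cdh5, sox7, nrp1b, fli1a, stab1, lmo2 and tal1, though narrowly for lmo2, and overlap for pecam1.

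Among the transcription factors, the ETS and SoxF genes and the blood and vessel factors lmo2 and tal1 had opposite signs. The SoxF gene sox7, which acts with sox18 in arterial and venous specification in zebrafish, had 5.51, 6.47 and 6.19 CPM with sunitinib, against 10.1, 8.52 and 8.06 CPM with DMSO. No sunitinib value reached the lowest DMSO value. On the log2 scale this came to -0.55 (standard error 0.17, adjusted p = 0.293 by edgeR), and it stayed between -0.61 and -0.45 when any 1 library was left out. Its unadjusted p was under 0.05 in all 16 alternatives.

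The ETS gene fli1a, expressed throughout the endothelium and widely used to label zebrafish vessels, had 18.9, 17.5 and 17.6 CPM in sunitinib libraries and 23.5, 22.9 and 21.3 CPM in DMSO libraries. The groups were apart, at -0.33 on the log2 scale (standard error 0.13, adjusted p = 0.336 by edgeR). Its unadjusted p was above 0.05 without Sunitinib replicate 2 (0.0746), Sunitinib replicate 3 (0.0899) or DMSO replicate 2 (0.0584). The related gene erg overlapped between groups, at -0.14 on the log2 scale.

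The factor gene gata2a, active in endothelial and blood progenitors, had 11.9, 11.5 and 12.3 CPM with sunitinib, against 12.9, 15.2 and 15.5 CPM with DMSO. The groups did not overlap, and the log2 fold change was -0.28 (95% interval -0.60 to 0.03). The vascular master regulator gene etv2 had 8.11, 7.30 and 7.74 CPM in sunitinib libraries and 14.9, 9.21 and 7.39 CPM in DMSO libraries. Its log2 fold change of -0.45 rested largely on DMSO replicate 1, without which it was -0.11. For sox18 the log2 fold change was -0.37, and without DMSO replicate 2, the highest library at 11.2 CPM, it was -0.16.

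The genes lmo2 and tal1, whose products act together in blood formation, had positive values, unlike gata2a. The LIM protein gene lmo2 had 13.4, 14.6 and 16.0 CPM with sunitinib, against 11.04, 13.4 and 10.3 CPM with DMSO. Its partner gene tal1, which encodes the SCL factor, had 13.4, 12.5 and 15.1 CPM with sunitinib, against 10.4, 11.4 and 11.4 CPM with DMSO. In both genes every sunitinib value lay above every DMSO value, though only narrowly for lmo2.

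The log2 fold changes were 0.34 for lmo2 (standard error 0.16, adjusted p = 0.363, edgeR) and 0.30 for tal1 (standard error 0.15, adjusted p = 0.386). The unadjusted p of lmo2, 0.0478, was above 0.05 without Sunitinib replicate 2 (0.0833), Sunitinib replicate 3 (0.157), DMSO replicate 1 (0.0768) or DMSO replicate 3 (0.168).

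Blood markers were set beside these values. All 9 listed erythrocyte markers were found, none of them at 0 in every library, and they summed to 10477 to 15790 CPM in sunitinib libraries and 10181 to 11270 CPM in DMSO libraries. That sum was mostly hbae3 and hbbe1.1, and the median log2 fold change of the 9 markers was -0.095. The embryonic globin genes hbae3, hbbe2, hbbe1.1 and hbae1.1 had log2 fold changes of 0.57, 0.63, 0.20 and 0.08, and hbbe3 had -1.0. The erythroid factor gene gata1a had -0.39, and epb41b, alas2 and slc4a1a had -0.43, -0.27 and -0.09. The outlying DMSO replicate 1 was the highest library for all of these and for hbbe3. It had 279.9 CPM of alas2, while DMSO replicates 2 and 3 had 196.4 and 201.7 CPM, within the sunitinib range of 167.3 to 227.2 CPM. The globin copies are alike in sequence, so how reads were divided among them is uncertain. All 6 thrombocyte markers were found, also with none at 0 throughout, and they summed to 110.9 to 120.6 CPM with sunitinib, against 135.4 to 147.7 CPM with DMSO. Their sum was mostly thbs1b, which had a log2 fold change of -0.34. The platelet receptor genes gp9 and gp1bb had log2 fold changes of 0.51 and 0.51, and fermt3b had -0.04. The markers itga2b and mpl were too low to test. The part of blood cells in the values of lmo2 and tal1 was not tested.

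The venous and lymphatic factors did not separate. The nuclear receptor gene nr2f2, a factor of venous identity, had 40.4, 38.2 and 39.5 CPM with sunitinib and 39.8, 41.4 and 44.4 CPM with DMSO. The homeobox gene prox1a, the regulator of lymphatic fate, had 8.19, 10.1 and 8.21 CPM with sunitinib and 13.6, 8.17 and 10.5 CPM with DMSO. Both overlapped between groups, with log2 fold changes of -0.09 (95% interval -0.36 to 0.18) and -0.28 (-0.71 to 0.14). Without DMSO replicate 1, prox1a was at -0.08.

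The Tie receptors and their ligand all had negative values. The receptor gene tie1, an orphan receptor needed for vessel and lymphatic growth, had 11.3, 14.1 and 11.9 CPM with sunitinib, against 19.2, 11.98 and 17.8 CPM with DMSO. DMSO replicate 2 fell among the sunitinib values, and the log2 fold change of -0.39 (95% interval -0.79 to 0.01) was -0.57 without that library and -0.26 without DMSO replicate 1. The gene tek, which encodes the angiopoietin receptor Tie2, had 4.99, 6.98 and 5.38 CPM in sunitinib libraries and 5.80, 6.51 and 7.19 CPM in DMSO libraries, which overlapped, at -0.16.

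The ligand gene angpt1, made mostly by cells around the vessel, had 2.68, 2.73 and 2.56 CPM with sunitinib, against 2.93, 3.81 and 3.56 CPM with DMSO. The groups were apart, with a log2 fold change of -0.37 (95% interval -0.84 to 0.10). Markers of mural cells, the pericytes and smooth muscle of the vessel wall, were all found (8 of 8, none at 0 in every library). They summed to 77.7 to 86.0 CPM with sunitinib, against 87.8 to 103.7 CPM with DMSO. The largest part of the sum was notch3, with a log2 fold change of -0.44. The markers pdgfrb, abcc9 and myh11a were at -0.62, -0.27 and -0.03, and acta2 and tagln at 0.28 and 0.07. The others, kcnj8 and ndufa4l2a, were too low to test. The part of mural cells in the angpt1 values was not tested.

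Of the guidance receptors, nrp1b differed most. Neuropilins are co-receptors for class 3 semaphorins and for VEGF, and zebrafish has 2 copies each of neuropilin-1 and neuropilin-2. The gene nrp1b had 1.93, 1.84 and 1.82 CPM with sunitinib, against 3.28, 2.70 and 3.29 CPM with DMSO, from 26, 29 and 27 reads and from 47, 39 and 49 reads. The sunitinib values were nearly equal to each other and all below the DMSO values. The log2 fold change was -0.73 (standard error 0.23, 95% interval -1.23 to -0.23, adjusted p = 0.299, edgeR), or 1.66-fold lower, and its unadjusted p was under 0.05 in all 16 alternatives.

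Its copy nrp1a had 24.1, 23.6 and 26.8 CPM with sunitinib and 28.4, 27.5 and 29.1 CPM with DMSO. These groups were also apart, but the log2 fold change was -0.19 (95% interval -0.47 to 0.09). The neuropilin-2 genes nrp2a and nrp2b lay at -0.05 and -0.07, with overlapping groups. The arterial ligand gene efnb2a and the venous receptor gene ephb4a, an ephrin pair of artery and vein, were at 0.0099 (95% interval -0.53 to 0.55) and -0.06 (-0.36 to 0.23). The sphingosine 1-phosphate receptor gene s1pr1 had 44.1, 55.1 and 45.1 CPM with sunitinib and 58.5, 49.4 and 53.6 CPM with DMSO, which overlapped. The adrenomedullin co-receptor gene ramp2 was at 0.13 (95% interval -0.33 to 0.59).

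The scavenger and hyaluronan receptors, which mark lymphatic and venous endothelium, gave mixed values. The gene stab1, which encodes the scavenger receptor stabilin 1, had 16.3, 17.8 and 17.6 CPM with sunitinib, against 22.8, 19.6 and 22.0 CPM with DMSO. The groups were apart, at -0.32 on the log2 scale (standard error 0.14, adjusted p = 0.347 by edgeR). Its unadjusted p of 0.0380 was above 0.05 without any 1 library other than DMSO replicate 2, at 0.0572 to 0.122. The mannose receptor gene mrc1a had 43.5, 41.2 and 32.5 CPM in sunitinib libraries and 54.6, 44.4 and 44.4 CPM in DMSO libraries, groups that were narrowly apart, at -0.29 (95% interval -0.62 to 0.04).

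The hyaluronan receptor gene lyve1b had 8.48, 6.35 and 5.79 CPM with sunitinib and 4.47, 7.62 and 7.66 CPM with DMSO. Sunitinib replicate 1 was its highest library and DMSO replicate 1 its lowest, and the log2 fold change of 0.06 was -0.16 without DMSO replicate 1. The gene stab2 overlapped between groups, at -0.13. Macrophages also express some mannose receptor and stabilin genes. All 10 macrophage markers were found, none at 0 in every library. They summed to 40.8 to 41.4 CPM with sunitinib and 39.0 to 48.3 CPM with DMSO, ranges that overlapped. The largest part of the sum was mfap4, with a log2 fold change of 0.13, and cxcr3.2 was at 0.15. The markers spi1b, csf1rb, c1qc, csf1ra, mpeg1.1 and marco were at -0.70, -0.38, -0.15, -0.13, -0.13 and -0.11. The spi1b value leaned on DMSO replicate 1, at 8.03 CPM. DMSO replicates 2 and 3 had 3.53 and 3.43 CPM of spi1b, within the sunitinib range of 2.83 to 3.55 CPM. The macrophage markers c1qa and c1qb were too low to test. The part of macrophages in these receptor values was not tested.

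**Figure D4:**
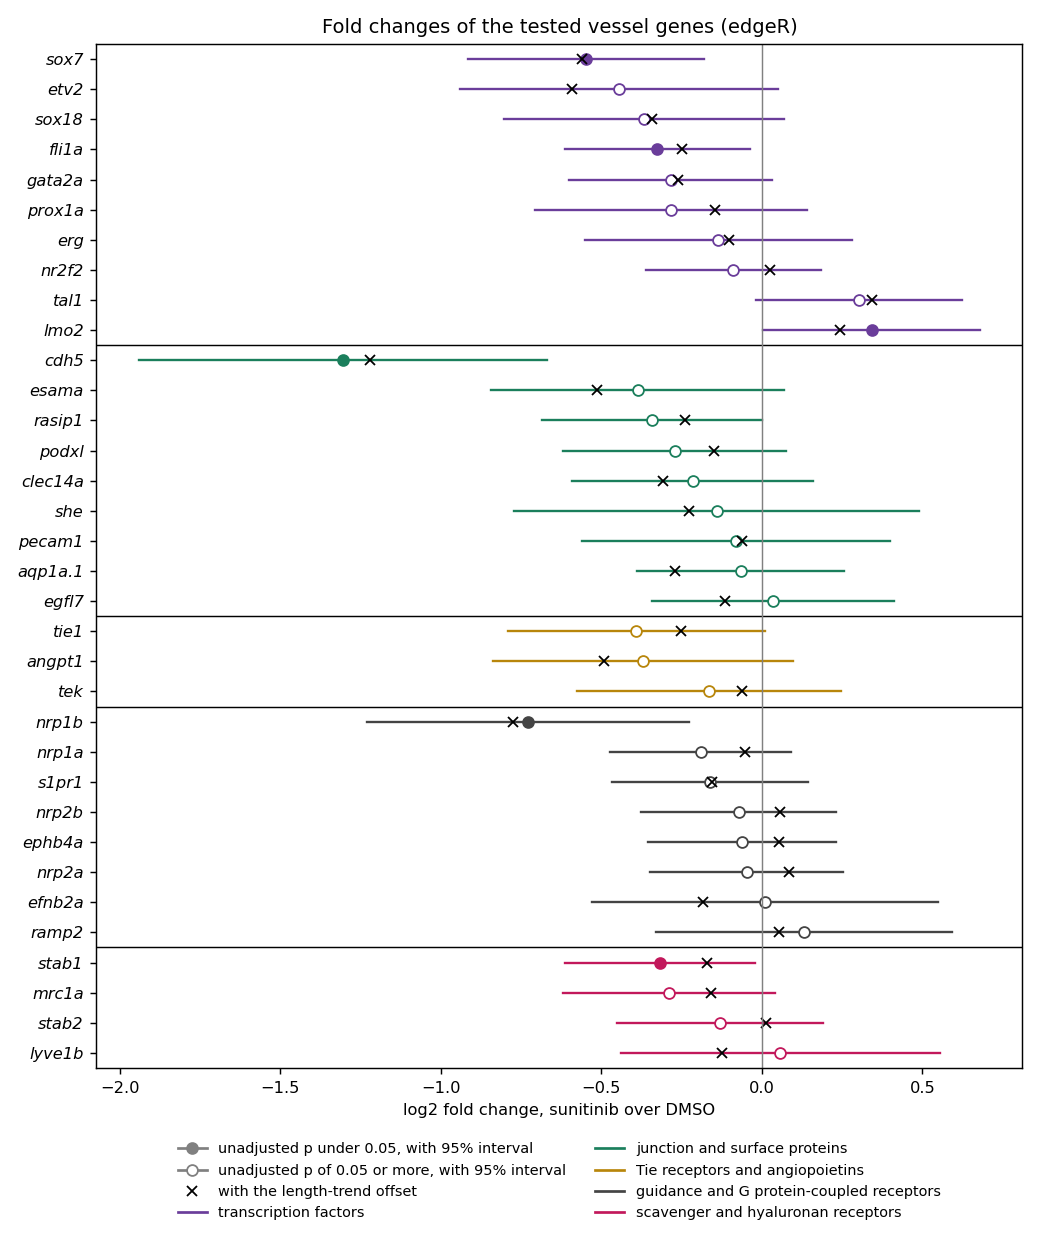
Log2 fold change of each tested vessel gene, sunitinib over DMSO, with its 95% interval from edgeR, filled where the unadjusted p was under 0.05, and a cross for the value with the length trend taken out. The intervals of cdh5, sox7, fli1a, nrp1b, stab1 and lmo2 leave out 0.

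Of the 3 genes listed under older symbols, cd34 differed most. The sialomucin gene cd34 had 73.4, 60.1 and 60.2 CPM with sunitinib, against 92.1, 71.0 and 91.8 CPM with DMSO, with overlapping groups, as Sunitinib replicate 1 exceeded DMSO replicate 2. Its log2 fold change was -0.40 (standard error 0.15, adjusted p = 0.318, edgeR). The plasmalemma vesicle genes plvapb and plvapa, which form the diaphragms of fenestrated endothelium, were at 0.07 and 0.33, with intervals that included 0. Their mean FPKM over the 6 libraries was 38.3 for plvapb, which lies between aqp1a.1 and s1pr1, 23.5 for cd34, between s1pr1 and nr2f2, and 0.717 for plvapa.

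In these libraries longer genes tended to have lower fold changes. Spearman's rho between fold change and effective length was -0.40 over the 17308 tested genes with a length and -0.16 over the 34 vessel genes. Genes of 1 library set share its depth and composition, so both are given as descriptions. The vessel genes had a median effective length of 2282 bases, close to the 2052 bases of all tested genes. At their lengths the trend over all genes had a median of -0.03. With the trend taken out of each library, 26 of the 34 genes were negative (76.5%, background 50.0%), the median was -0.16, 7 were lower at an unadjusted p under 0.05 (20.6%, background 5.74%), and 1 was higher (background 5.7%). Not all of these were the genes called before. In that setting cdh5 was at -1.22, nrp1b at -0.78 and sox7 at -0.56, and 4 others were newly among the lower genes, etv2 at -0.59, esama at -0.52, angpt1 at -0.49 and aqp1a.1 at -0.27. The calls of fli1a (-0.25, unadjusted p 0.0721), stab1 (-0.17, 0.213) and lmo2 (0.24, 0.116) were lost, and the 1 higher gene was tal1 (0.34, 0.0394).

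**Figure D5:**
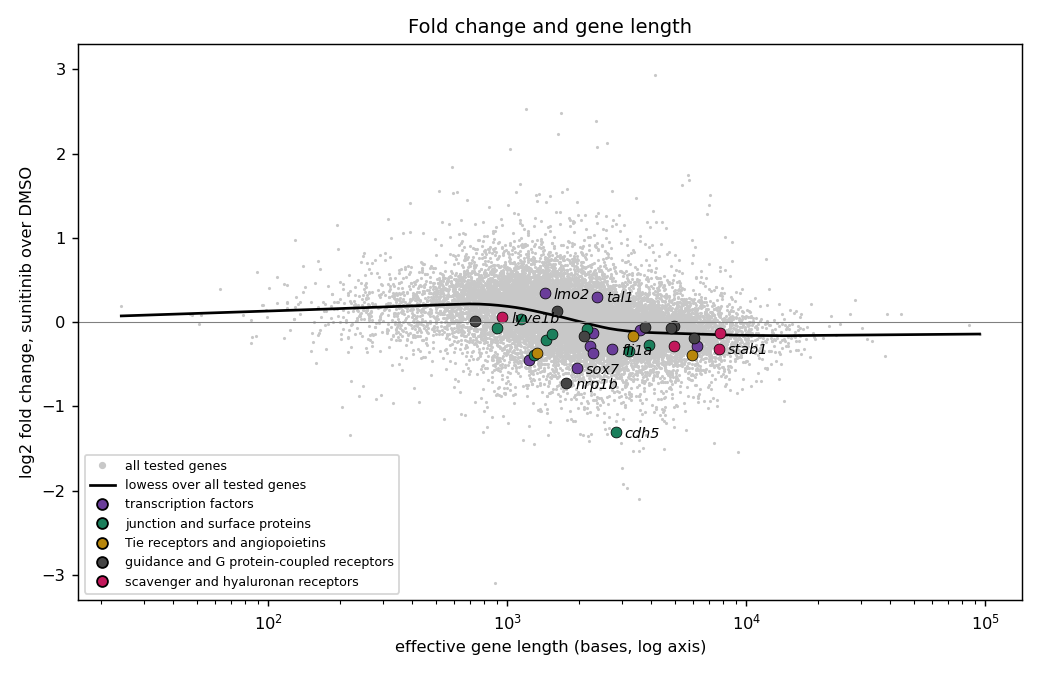
Log2 fold change, sunitinib over DMSO, against effective gene length on a log axis, for all tested genes (grey) and the vessel genes (coloured by role), with a lowess curve over all tested genes. The curve declines with length, and cdh5, at -1.31, lies far below it.

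Other genes of the same vessel pathways, 92 names in 6 lists, were mostly negative in the same libraries. The lists were written with earlier results of these data known, so they are no independent support. Of 82 tested, 66 had a negative log2 fold change (80.5%, background 50.5%) and 16 a positive one, with a median of -0.19. At an unadjusted p under 0.05, 14 were lower (17.1%, background 6.12%) and 4 were higher (4.88%, background 7.51%), and edgeR gave none an adjusted p under 0.05. Of 29 other endothelial genes, 8 were lower at that p, among them tmem88a (a membrane protein of endothelial and blood progenitors) at -0.78, the ETS genes ets1 at -0.65 and elk3 at -0.51, myct1a at -0.58, the caveolar coat gene cavin1b at -0.57 and fgd5a, a regulator of Cdc42 in endothelium, at -0.52. The guidance receptor gene robo4 and the peptide ligand gene apln were at -0.33 and -0.36. The receptor gene gpr182 was the 1 higher, at 0.38. With the length trend taken out, 62 of the 82 were negative (75.6%, background 50%), 10 were lower (12.2%, background 5.74%) and 3 were higher (background 5.7%). In that setting robo4, apln and gpr182 had an unadjusted p of 0.141, 0.0992 and 0.0991.

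Semaphorins, which are guidance signals, and plexins, which receive them with neuropilins, were mostly negative. Of 15 semaphorin and plexin genes 14 had a negative value (background 50.5%). The genes sema3ab, sema3gb, sema3e and sema3fb were lower at an unadjusted p under 0.05 (background 6.12%), at -0.65, -0.61, -0.35 and -0.35. The 15 are long genes, with a median effective length of 4270 bases. With the length trend taken out 11 of the 15 were negative (background 50%), and their median was -0.17 in place of -0.28. In that setting sema3e (-0.22, unadjusted p 0.151) and sema3fb (-0.21, 0.149) lost the call. Of 8 tested ephrin and Eph genes, ephb4b was lower, at -0.31, with an unadjusted p of 0.0982 once the length trend was taken out. The lymphatic growth list was divided, with 5 of 9 genes negative, near the background of 50.5%. In it the ligand gene vegfd was at 0.74, with 36, 42 and 30 reads with sunitinib, against 19, 20 and 25 reads with DMSO, and tbx1, a factor of lymphatic development, was at -0.55. In the remaining lists the adrenomedullin gene admb was at 0.50 (unadjusted p 0.0722 with the length trend taken out) and pdcd10b, of the cerebral cavernous malformation complex, at 0.55.

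The VEGF receptor genes, which share these cells, lay on the same side. The lymphatic and venous receptor gene flt4 had 8.86, 9.77 and 10.3 CPM with sunitinib, against 14.9, 13.6 and 12.8 CPM with DMSO, which is -0.51 on the log2 scale (standard error 0.15, adjusted p = 0.293 by edgeR). The log2 fold changes of flt1, kdrl and kdr were -0.77, -0.45 and -0.36. These are long genes, with a median effective length of 4693 bases. With the length trend taken out, flt4, flt1, kdrl and kdr were at -0.39, -0.70, -0.32 and -0.22. In flt1, flt4 and kdrl every sunitinib value lay below every DMSO value (background 10.8%), and kdr overlapped.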

How the data were processed

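Strand-specific libraries from 6 pools of tail fin RNA were read as 150 bp pairs, per the labels. The authors deposited estimated counts per gene (92.5 to 93% of values whole), FPKM and TPM, and a normalized read count, a signal made by dividing each rounded-up count by 1 factor per library. The submitters' processing notes name the GRCz11 build, and for the aligner, counter and annotation nothing is stated, so they are not given in the sources used. The authors' group means were not used. Their normalized counts and TPM were not tested.

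Counts were rounded and tested with edgeR 4.0.16 in R 4.3.3 (filterByExpr, TMM, quasi-likelihood, Benjamini-Hochberg) on 17309 genes, 3 libraries against 3, and 7614 genes were too low to test. Intervals are 95%. CPM served comparisons between groups and FPKM those between genes. The length setting took a lowess curve (span 0.3) of log2 values on effective length out of each library. DESeq2 1.42.0, limma 3.58.1 on log2(FPKM + 1) and log2(FPKM + 0.1) for genes with at least 1 FPKM in 3 libraries, other scalings and filters, the replicate block and leaving out each library were alternatives. On simulated counts, edgeR recovered 75% of 100 genes changed 2-fold and 99% of 100 changed 4-fold, over 17094 genes, and called 12 unchanged genes. The simulated libraries were independent draws with the fitted spread, without a length trend or an outlying library. Genes with a mean below 1 CPM were not among those changed. These shares therefore do not give the power of the test in the real libraries.

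Vessel genes and lists were chosen with earlier results of these data known. Values in every library are given for genes with an unadjusted p under 0.05 or groups that did not overlap, for the 5 highest by FPKM, and for cdh5, pecam1, tie1, tek, fli1a, lyve1b and prox1a. Of the wider lists, genes with an unadjusted p under 0.05 and the VEGF receptors are named. Symbols were matched to RefSeq by gene ID, in a table of the GRCz12tu assembly, so no coordinates are given. Larvae were pooled, so p-values measure the spread between pools.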

Additional observations from a re-analysis of the deposited data

How the results depend on the processing

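The median log2 fold change of the vessel genes was negative in every alternative, between -0.26 and -0.16. It was -0.25 with limma on log2(FPKM + 0.1) and -0.26 to -0.18 when 1 library was left out. The count of genes lower at an unadjusted p under 0.05 was 3 in DESeq2 (2.69% of all genes). It was 3 to 7 with 1 library left out (3.51% to 7.73% of all genes), the 3 being without Sunitinib replicate 3. Among the 7 without DMSO replicate 1 was hhex, which passed the read filter only through the DMSO libraries. The count higher was 0 in DESeq2 (4.45% of all genes) and 0 in both limma fits (5.64% and 5.59% of all genes). It was also 0 with the replicate block (5.69%) and with the replicate block and length trend (4.88%). With 1 library left out it was 0 to 1 (4.88% to 9.71% of all genes). At such shares a count of 0 or 1 in so few genes says little. Whether the replicate numbers pair the samples was not settled. With the group mean taken out of each gene, the deviations of same-numbered libraries had correlations of -0.175, -0.0981 and 0.0189. So few libraries per group cannot show whether samples were paired. The replicate block gave 4 genes lower (4.8% of all genes) and a median of -0.18. Of 334 comparisons over 21 named genes, 325 kept their direction and none passed an adjusted p of 0.05. The 9 others were small values. With 1 library left out, aqp1a.1 ran from -0.19 to 0.0291 (positive without Sunitinib replicate 2), pecam1 from -0.27 to 0.20 (0.06 without Sunitinib replicate 1 and 0.20 without DMSO replicate 1) and lyve1b from -0.16 to 0.18 (-0.11 without Sunitinib replicate 1 and -0.16 without DMSO replicate 1). With the length trend taken out, nr2f2 was at 0.0244 and lyve1b at -0.12, and with the replicate block and length trend they were at 0.0252 and -0.12. The cause was not tested. Over all genes, edgeR called 12 at an adjusted p of 0.05 with no filter on low counts, 3 without DMSO replicate 1 and 1 without DMSO replicate 2, and DESeq2 called 43. Genes of few reads, such as cdh5 and nrp1b, have the widest intervals, and cdh5 and she were too low for limma on FPKM.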
